A study of Mus musculus with 6 samples.

Results

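Interferon-stimulated genes are the genes that cells switch on when interferon reaches them. A list of 39 of them was followed through the uterine epithelium of pregnant mice, and 37 were measured among the 18193 genes of the arrays. Each gene was read at the probe set with its platform symbol that had the highest mean log2(signal + 1) over the 6 arrays. Isg15 and Ifi44 had no probe set with a single gene symbol and are not analysed here. The genes were listed by name, with earlier results of these data known.

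The epithelium was separated from the rest of the uterus with pancreatin and dispase, and its RNA was hybridised to Affymetrix 3′ expression arrays. There were 3 groups of 2 arrays: wild-type (WT) females on day 1 of pregnancy (arrays 302 and 303), WT females on day 4 (arrays 277 and 284), and females on day 4 that carried Sox17GFP/+, a GFP allele of the transcription factor gene Sox17 beside a normal one (arrays 253 and 281). These last are called heterozygous below, and day 1 is the day on which the vaginal plug was seen. The labels name no other allele or agent for any group. The labels give no age and do not say that each array came from its own animal, so p-values measure only the spread between these samples.

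Interferons are secreted signals. They bind receptors on the cell surface, and the receptors' JAK kinases activate STAT and IRF transcription factors, which act on interferon-stimulated response elements (ISRE) and gamma-activated sites (GAS) in promoters. The induced genes block viral entry, copying, translation and spread, sense foreign RNA and DNA, and tune the signal itself. In the uterus, several of them are also known to respond to pregnancy and to ovarian hormones. Day 1 of mouse pregnancy is under estrogen, and by day 4 progesterone prevails and the uterus is ready for the embryo.

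The deposited values are linear probe set signals with a trimmed mean of 500 on every array. Signals under 50 are read as low, because no detection calls were used. Array 277, from WT on day 4, stood apart in its dim range. Its probe sets had the median 138, while the remaining 5 arrays had medians of 66.2 to 78.0, and probe sets below 50 made up 27.0% of array 277 and 41.6% to 44.6% of the rest. Epithelial markers (Epcam, Krt8, Krt18, Krt19, Cdh1 and Cldn7) were bright on all arrays, with a summed signal of 110241 to 139542. Sox17 itself read 7738 and 8671 in WT on day 1, 34794 and 35060 in WT on day 4, and 30189 and 28810 in heterozygotes. The heterozygous arrays were thus the lower of the day 4 arrays, by -0.24 ± 0.19 on the log2(signal + 1) scale (limma's standard error, n = 2 arrays per group; adjusted p = 0.586). The sources used here do not give whether this probe set lies in the part replaced by GFP.

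Between day 1 and day 4, most interferon-stimulated genes were lower in WT epithelium. Of the 37 measured, 14 fell and 1, Xaf1, rose in limma, at a p under 0.05 after Benjamini-Hochberg adjustment over all 18193 genes, while 22 did not pass. Over all genes, 5.73% fell and 7.58% rose by the same rule. The mean was lower on day 4 for 33 of the 37 and higher for 4, against 37.1% and 62.9% of all genes. The median log2 change of the 37 was -1.63, beside 0.30 over all genes, and 27 of the 37 were at least 2-fold lower and 1 at least 2-fold higher, against 12.5% and 24.7% of all genes. Both day 4 arrays lay below both day 1 arrays for 32 of the 37, and above them for Irf9, Ifitm3 and Xaf1, against 21.3% and 35.4% of all genes. Only Isg20 and Igtp overlapped among the 37. With a spread estimate that follows signal intensity (the trend fit), 31 fell and 1 rose, against 10.8% and 14% of all genes. Elsewhere fell, rose and passed refer to limma's default fit unless the trend fit is named.

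The count of 15 rests on the full set of arrays. Without either day 1 array no member passed in the default fit, without array 277 or 284 it called 11, and without array 253 or 281, which enter only through the shared spread, 1. The trend fit called 25 to 32 with any 1 array left out, and the fit on the 4 arrays of the comparison alone called 1. Centring each array on its median called 12, all lower: it ended the calls of Herc6, Trim25, Dtx3l, Irgm1, Rtp4 and Xaf1 and added Oas3, Ifit3 and Zbp1. The share of all genes called in each of these settings is not given here. A loss of calls among the members alone and a loss over all genes are therefore not told apart.

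**Figure D1:**
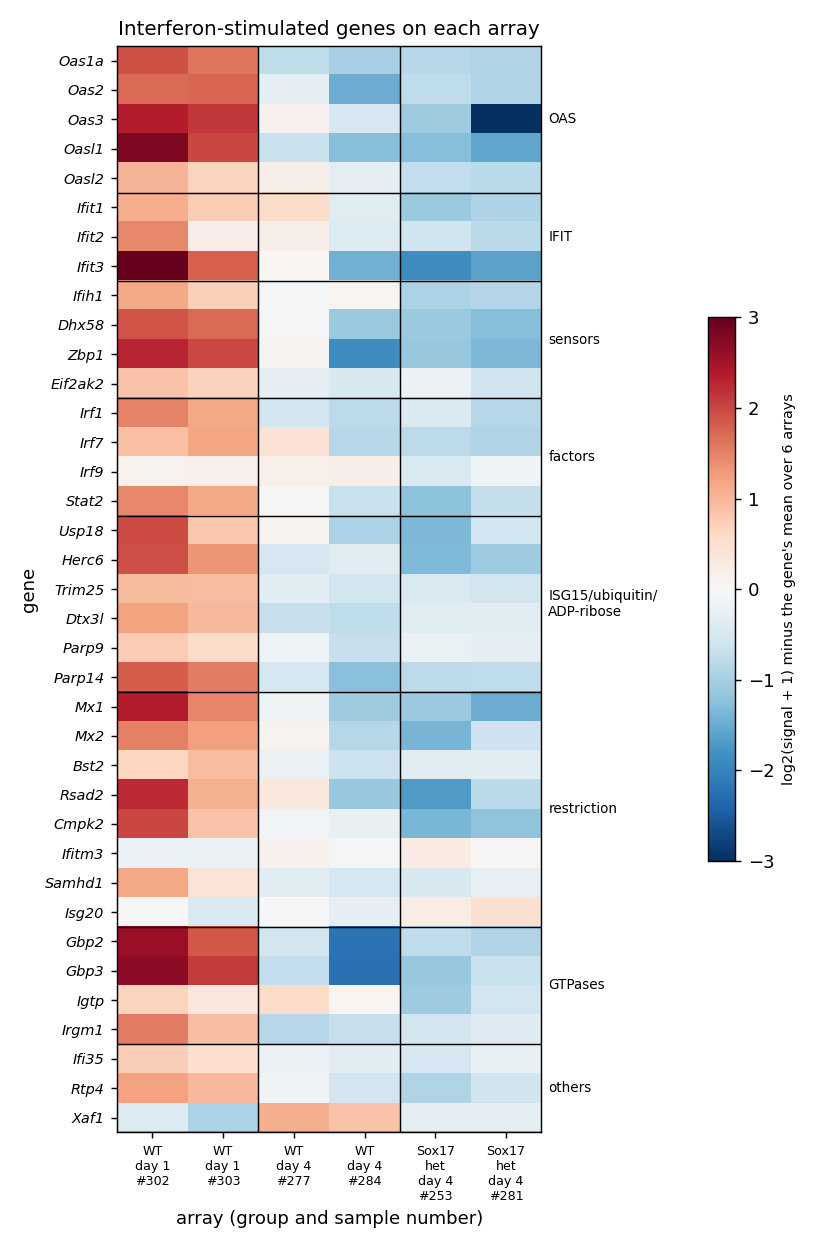
Heat map of 37 interferon-stimulated genes (rows, grouped by role) on the 6 arrays (columns, with sample numbers); colour is log2(signal + 1) minus the gene's mean over the 6 arrays, from blue (lower) to red (higher), ending at 3 on either side. Most rows are red on both day 1 arrays, while Xaf1 is highest on the WT day 4 arrays and Irf9, Ifitm3 and Isg20 are pale throughout.

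Promoter sequence is shown for 7 members that carry the patterns described below: lower on day 4 in both genotypes (Oas1a, Gbp2, Irgm1, Irf1), lowest in heterozygotes (Ifit1, Igtp) and highest in WT on day 4 (Xaf1). They were chosen after their values were seen. Each line holds the 150 bases before the annotated start, 5′ to 3′ on the gene's strand, from RefSeq promoter windows of build GRCm38.p6. Capitals mark matches to the ISRE core (GAAA, any 2 bases and GAAA again, or TTTC, any 2 bases and TTTC on the other strand) and to the GAS core (TTCNNNGAA, which reads alike on both strands).
Oas1a, chr5:120907526-120907675, minus strand: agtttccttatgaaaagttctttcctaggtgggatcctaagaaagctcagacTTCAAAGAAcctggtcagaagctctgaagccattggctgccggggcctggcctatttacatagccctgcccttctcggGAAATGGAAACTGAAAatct
Gbp2, chr3:142620513-142620662, plus strand: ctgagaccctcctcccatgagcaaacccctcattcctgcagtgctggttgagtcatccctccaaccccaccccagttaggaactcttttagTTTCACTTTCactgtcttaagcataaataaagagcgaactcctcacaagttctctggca
Irgm1, chr11:48871421-48871570, minus strand: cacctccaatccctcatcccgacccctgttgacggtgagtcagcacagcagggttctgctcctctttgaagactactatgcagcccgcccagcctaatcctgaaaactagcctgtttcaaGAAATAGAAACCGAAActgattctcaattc
Irf1, chr11:53769864-53770013, plus strand: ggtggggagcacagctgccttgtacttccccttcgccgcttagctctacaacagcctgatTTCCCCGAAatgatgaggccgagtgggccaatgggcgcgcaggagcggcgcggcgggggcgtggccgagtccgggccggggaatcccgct
Ifit1, chr19:34640739-34640888, plus strand: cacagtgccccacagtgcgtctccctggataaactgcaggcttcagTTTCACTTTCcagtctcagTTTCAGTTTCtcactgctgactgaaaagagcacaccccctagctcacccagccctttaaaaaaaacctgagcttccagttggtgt
Igtp, chr11:58199406-58199555, plus strand: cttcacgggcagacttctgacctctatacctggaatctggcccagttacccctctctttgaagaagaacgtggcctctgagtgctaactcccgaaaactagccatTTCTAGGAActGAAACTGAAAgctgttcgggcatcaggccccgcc
Xaf1, chr11:72301479-72301628, plus strand: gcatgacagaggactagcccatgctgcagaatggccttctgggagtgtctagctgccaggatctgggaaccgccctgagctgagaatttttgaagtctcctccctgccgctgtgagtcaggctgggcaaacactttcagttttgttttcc

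Oas1a and Irgm1 each hold a pair of ISRE matches that overlap by 4 bases, within 30 bases of the start. Ifit1 holds a pair of ISRE matches without overlap, Gbp2 holds 1, Igtp holds 1 beside a GAS match, Irf1 holds a GAS match, and Xaf1 holds neither in this stretch. Irf1 has a further annotated start, and the 150 bases before it (chr11:53770323-53770472, not printed) hold neither. RefSeq windows of 300 bases were found for 28 of the 37 members. The ISRE core stood in the windows of 14 of these 28, against 3.99% of 27025 genes with a window, and the GAS core in 10 of the 28, against 9.55%. Among members that fell between day 1 and day 4, 4 of the 9 with a window held the ISRE core, and among the others 10 of 19. A match describes these letters only.

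The oligoadenylate synthetases and their relatives sense double-stranded RNA, and the active enzymes among them make the short chains that switch on the RNA-cutting enzyme RNase L. All 5 members were lower on both WT day 4 arrays, and Oas1a, Oas2 and Oasl1 fell. Oas1a read 11541 and 9279 on day 1, 1809 and 1528 in WT on day 4, and 1686 and 1634 in heterozygotes. The 4 day 4 arrays lay close together, far below day 1. Oas1a fell 6.22-fold in WT (log2 change -2.64 ± 0.22, adjusted p = 0.00909), and in heterozygotes the log2 difference from WT on day 4 was -0.00 ± 0.22.

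Oasl1, which holds down translation of Irf7, read 4901 and 2824 on day 1, 443 and 290 in WT on day 4, and 291 and 239 in heterozygotes. Day 1 lay above all day 4 arrays, which overlapped between genotypes. It fell 10.4-fold in WT (-3.37 ± 0.39, adjusted p = 0.0153), the largest decrease of this class. Oas2 read 4059 and 4184 on day 1, 1017 and 446 in WT on day 4, and 741 and 664 in heterozygotes. It fell in WT (-2.61 ± 0.44, adjusted p = 0.0322), and both heterozygous arrays lay between the 2 WT day 4 arrays.

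Oas3 had a stepwise order. Its signals were 900 and 765 on day 1, 192 and 124 in WT on day 4, and 84.0 and 20.4 in heterozygotes, the last of them low. No group overlapped another. Neither step passed alone (-2.42 ± 0.73, adjusted p = 0.111, then -1.87 ± 0.73, adjusted p = 0.388), and the sum of both, heterozygous day 4 against WT day 1, did (-4.28 ± 0.73, adjusted p = 0.0398). Oasl2 ran in the same order at 6970 and 5428, then 3844 and 2784, then 2042 and 1940, and it too passed only from WT day 1 to heterozygous day 4 (-1.63 ± 0.27, adjusted p = 0.0372).

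The IFIT proteins bind foreign RNA ends and block its translation. None of the 3 passed between day 1 and day 4 in WT, although the groups did not overlap for any of them. Ifit1 read 3472 and 2767 on day 1, 2374 and 1257 in WT on day 4, and 755 and 856 in heterozygotes. The WT day 4 arrays were far apart, and both heterozygous arrays lay below them. The log2 differences were -0.84 ± 0.38 (adjusted p = 0.230) between days in WT and -1.10 ± 0.38 (adjusted p = 0.352) between genotypes on day 4. Ifit3 read 3208 and 1345, then 404 and 143, then 106 and 127. The 2 arrays of WT day 1 differed more for Ifit3 than for any other member, by 1.25 on the log2 scale. Its difference between days was -3.10 ± 0.69 (adjusted p = 0.0575), and heterozygous day 4 epithelium was lower than WT day 1 by a change that passed (-4.15 ± 0.69, adjusted p = 0.0372). Ifit2 ran from 296 on day 1 array 302 to 61.1 on heterozygous array 281, and passed nowhere.

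Among the sensors of foreign nucleic acid, Dhx58 fell and Ifih1, Zbp1 and Eif2ak2 did not pass. Dhx58 encodes LGP2, which tunes RNA sensing by its relatives RIG-I and MDA5. It read 1723 and 1513 on day 1, 445 and 217 in WT on day 4, and 215 and 192 in heterozygotes. Its day 1 arrays stood alone at the top, and the heterozygous arrays were just under the lower WT day 4 array. Dhx58 fell 5.18-fold in WT (-2.37 ± 0.40, adjusted p = 0.0318). In a fit over every probe set, its 2 dimmer ones differed by -3.97 ± 0.94 and 0.88 ± 0.75 between days in WT. Between genotypes on day 4 the same 2 differed by 1.21 ± 0.94 and -1.30 ± 0.75.

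Ifih1 encodes MDA5, the sensor of long double-stranded RNA. Its signals were 2767 and 2073 on day 1, 1205 and 1310 in WT on day 4, and 653 and 693 in heterozygotes, 3 tight pairs in descending order. The 2 steps had nearly equal size (-0.93 ± 0.23, adjusted p = 0.0760, between days in WT, and -0.90 ± 0.23, adjusted p = 0.274, between genotypes). Heterozygous day 4 was lower than WT day 1 by -1.83 ± 0.23 (adjusted p = 0.0229), although centring each array on its median ended this call (adjusted p = 0.157). Eif2ak2, which encodes PKR, the kinase that stops translation on sensing double-stranded RNA, read 1315 and 1178, then 594 and 521, then 639 and 478. The day 4 genotypes overlapped, and the difference between days was -1.16 ± 0.24 (adjusted p = 0.0511). Zbp1, a sensor of Z-form nucleic acid, had the widest WT day 4 pair of all members, at 423 and 109.

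Of the transcription factors that carry the signal, Irf1 fell and Irf9 stayed within a narrow range. Irf1 read 5362 and 4222 on day 1, 1278 and 1099 in WT on day 4, and 1400 and 1053 in heterozygotes. The heterozygous pair spanned the WT day 4 pair, and both lay far under day 1. It fell 4.01-fold in WT (-2.00 ± 0.26, adjusted p = 0.0191). Stat2, a subunit of the main transcription factor complex of type I interferon (ISGF3), read 957 and 781, then 352 and 219, then 148 and 212. Its groups did not overlap, and only the change from WT day 1 to heterozygous day 4 passed (-2.28 ± 0.35, adjusted p = 0.0331). Irf9, the DNA-binding subunit of the same complex, read 2631 and 2687 on day 1, 2727 and 2738 in WT on day 4, and 1783 and 2220 in heterozygotes. Both heterozygous arrays were the lowest, with differences of 0.04 ± 0.21 between days in WT (adjusted p = 0.923, and -0.26 after centring) and -0.46 ± 0.21 between genotypes (adjusted p = 0.425). Irf7, the factor that amplifies interferon production, spread from 3037 to 1244 within WT day 4 alone. It passed nowhere in the default fit, while the trend fit called it lower between days in WT (adjusted p = 0.0151).

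The class around ISG15, ubiquitin and ADP-ribose held 6 measured members. All 6 were lower on both WT day 4 arrays than on day 1, and Herc6, Trim25, Dtx3l and Parp14 fell. Parp14, an ADP-ribosyltransferase, read 5013 and 4126 on day 1, 993 and 600 in WT on day 4, and 825 and 838 in heterozygotes. Its heterozygous pair lay inside the WT day 4 pair. Parp14 fell 5.89-fold in WT (-2.56 ± 0.32, adjusted p = 0.0169). Herc6, the mouse ligase that attaches ISG15, read 1570 and 1025, then 292 and 320, then 164 and 196, again in 3 steps without overlap. It fell in WT (-2.05 ± 0.29, adjusted p = 0.0219).

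Trim25, the ubiquitin ligase that helps to activate RIG-I, read 10550 and 10353 on day 1, 4301 and 3695 in WT on day 4, and 3971 and 3680 in heterozygotes. The day 4 genotypes overlapped, and Trim25 fell in WT (-1.39 ± 0.20, adjusted p = 0.0221). Dtx3l, a ubiquitin ligase that works with Parp9, read 5027 and 4251, then 1341 and 1288, then 1680 and 1713. It fell in WT (-1.81 ± 0.20, adjusted p = 0.0135), and both heterozygous arrays were above WT on day 4, by 0.37 ± 0.20 (adjusted p = 0.474). Usp18, which removes ISG15 and restrains the receptor, read 5350 and 2402 on day 1 and 1445 and 709 in WT on day 4. Neither Usp18 nor Parp9 passed in any comparison of the default fit. The trend fit called both lower between days in WT (adjusted p = 0.00692 and 0.00133).

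Restriction factors and antiviral enzymes made up 8 members, of which Mx1 alone fell in WT and 7 did not pass. Mx1, a dynamin-like GTPase that traps viral particles, read 1786 and 959 on day 1, 313 and 164 in WT on day 4, and 159 and 122 in heterozygotes. The groups followed each other without overlap. Mx1 fell 5.76-fold in WT (-2.53 ± 0.49, adjusted p = 0.0426). Cmpk2, a mitochondrial nucleotide kinase, read 1437 and 642, then 337 and 304, then 137 and 153. It too descended without overlap, and passed only from WT day 1 to heterozygous day 4 (-2.72 ± 0.44, adjusted p = 0.0356).

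Bst2, the tetherin that holds budding virus at the membrane, read 3858 and 4707 on day 1, 2151 and 1585 in WT on day 4, and 1918 and 1993 in heterozygotes. The day 4 genotypes overlapped, and the WT difference between days was -1.21 ± 0.25 (adjusted p = 0.0512). Rsad2 (viperin), Mx2 and Samhd1 lay in the same direction in WT, by -2.06, -1.76 and -1.22, with adjusted p between 0.0833 and 0.148. The next brightest probe set of Samhd1 differed by only -0.12 ± 0.33 in a fit over every probe set, and its dimmer ones by -1.67 to 0.39. Ifitm3, which blocks virus entry, ran from 25728 to 35155 over the 6 arrays, and Isg20, an exonuclease that degrades viral RNA, ran from 2584 to 4895. Neither passed in any comparison. Their differences between days in WT were 0.23 ± 0.20 and 0.09 ± 0.27, and both turned negative after centring, to -0.075 and -0.21.

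The interferon-induced GTPases attack the membranes around intracellular microbes, and they split into different patterns. Gbp3 read 3322 and 2207 on day 1, 312 and 108 in WT on day 4, and 236 and 325 in heterozygotes. It was high on day 1 alone, and the day 4 genotypes overlapped. The fall of Gbp3 in WT was the largest of all members, 14.6-fold (-3.87 ± 0.60, adjusted p = 0.0265). Gbp2 read 4038 and 2470, then 464 and 145, then 402 and 363, and fell 12.2-fold in WT (-3.60 ± 0.64, adjusted p = 0.0357). Irgm1, which regulates the other immunity-related GTPases, read 5476 and 3615 on day 1, 1049 and 1164 in WT on day 4, and 1285 and 1454 in heterozygotes. Both heterozygous arrays were above WT on day 4, by 0.31 ± 0.28 (adjusted p = 0.639), and Irgm1 fell 4.02-fold in WT (-2.01 ± 0.28, adjusted p = 0.0214).

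Igtp (also named Irgm3), of the same family as Irgm1, had another pattern. Its signals were 3841 and 3044 on day 1, 3631 and 2522 in WT on day 4, and 1165 and 1638 in heterozygotes. The WT groups overlapped between the days, and both heterozygous arrays lay below all 4 WT arrays. The differences were -0.18 ± 0.32 (adjusted p = 0.758) between days in WT and -1.13 ± 0.32 (adjusted p = 0.293) between genotypes on day 4.

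Xaf1, which is known to promote apoptosis, moved against the other members. It read 4728 and 3238 on day 1, 13403 and 11396 in WT on day 4, and 5164 and 5137 in heterozygotes. The WT day 4 arrays stood alone at the top, and the heterozygous arrays were slightly above day 1. Xaf1 rose 3.16-fold in WT (1.66 ± 0.27, adjusted p = 0.0293), a call that ended after centring (1.36, adjusted p = 0.207). The heterozygotes were 2.40-fold lower than WT on day 4 (-1.26 ± 0.27, adjusted p = 0.228). A dimmer probe set of Xaf1 had the same order, at 108 and 43.5, then 456 and 657, then 173 and 160. Rtp4, a chaperone of membrane receptors that is strongly induced by interferon, read 8166 and 6963 on day 1, 3279 and 2359 in WT on day 4, and 1898 and 2331 in heterozygotes. It descended without overlap and fell in WT (-1.44 ± 0.27, adjusted p = 0.0404), while Ifi35 did not pass (-0.89 ± 0.22, adjusted p = 0.0771).

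**Figure D2:**
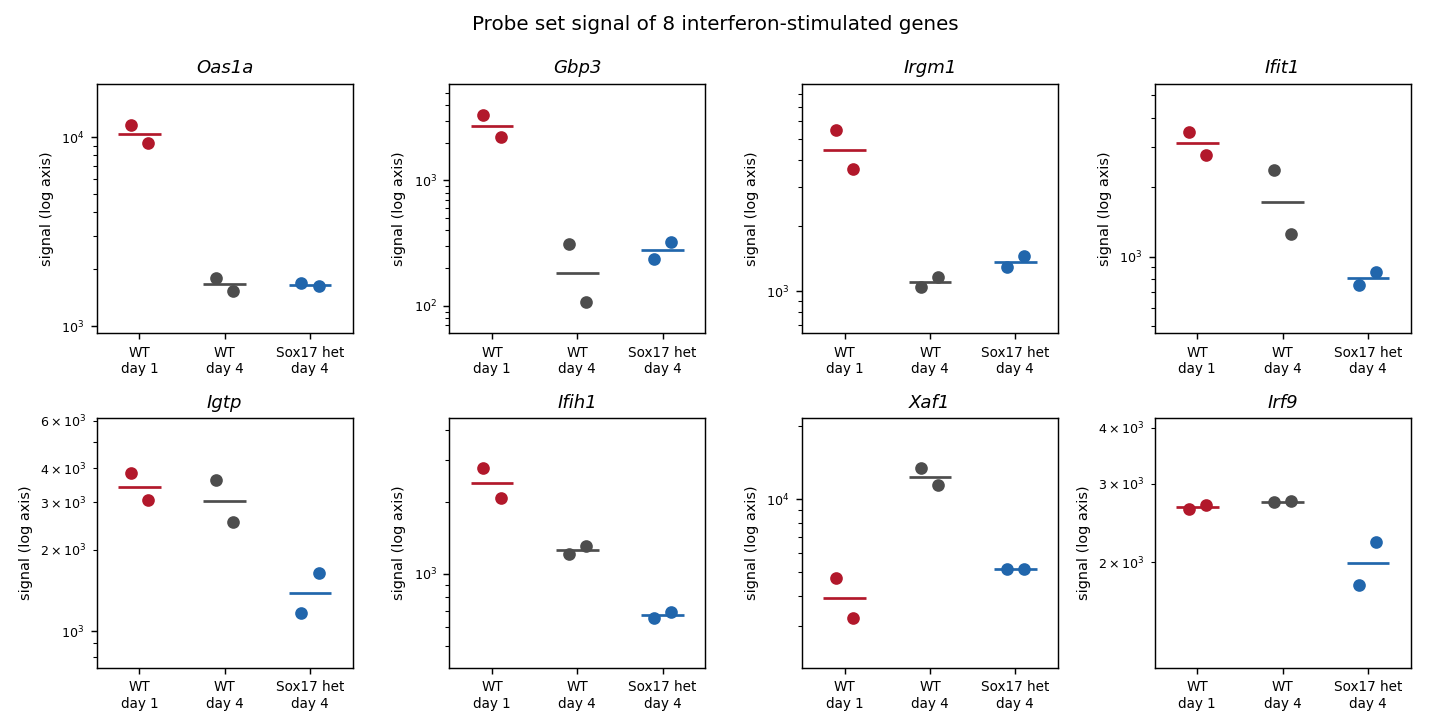
Signal (log axis) of 8 interferon-stimulated genes in the 3 groups; points are single arrays and lines the mean on the log2 scale. Oas1a, Gbp3 and Irgm1 are high on day 1 alone, Ifit1 and Ifih1 descend in steps, Igtp and Irf9 are lowest in heterozygotes, and Xaf1 is highest in WT on day 4.

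In the comparison of genotypes on day 4, no interferon-stimulated gene passed in limma's default fit, where 0% of all genes were called in either direction. At an unadjusted p under 0.05, 4 members were lower in heterozygotes and 0 higher, against 8.66% and 4.56% of all genes. The smallest adjusted p was that of Xaf1 (0.228). The median log2 difference of the 37 was -0.44, beside -0.20 over all genes, and 25 of the 37 had a lower mean in heterozygotes and 12 a higher one, against 62.7% and 37.3% of all genes. At least 2-fold differences were seen for 6 members that were lower and 0 that were higher, against 20.5% and 5.42% of all genes. Both heterozygous arrays lay below both WT day 4 arrays for 15 members and above them for Dtx3l, Isg20 and Irgm1, against 30.6% and 18% of all genes. After centring, the median of the members was 0.0054 and that over all genes 0.25.

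The trend fit called 4 members lower in heterozygotes and none higher, against 1.59% and 1.93% of all genes. They were Xaf1 (adjusted p = 0.00614), Igtp (0.0198), Ifih1 (0.0210) and Ifit1 (0.0472). These calls moved with single arrays. Without array 277 only Xaf1 passed, without array 253 only Oas3, and without array 281 only Igtp and Xaf1. Leaving out array 284 gave 7 calls (Oasl2, Ifit1, Dhx58, Zbp1, Irf7, Igtp and Xaf1), and after centring none of the 37 passed. How many of all genes passed in these settings is not given here.

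**Figure D3:**
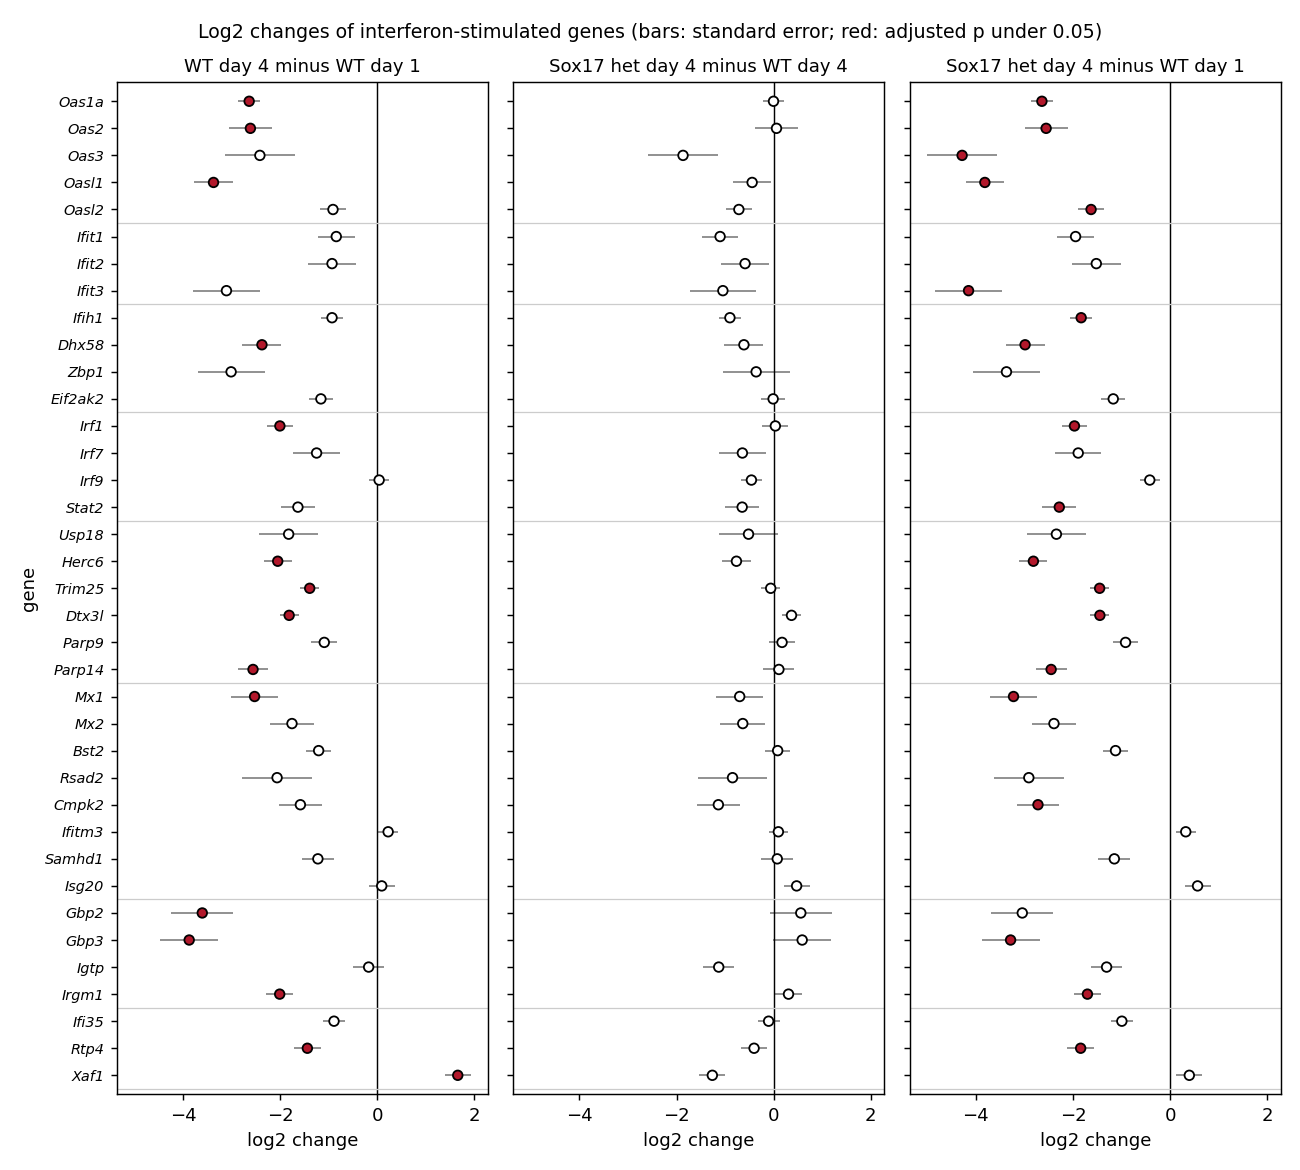
Log2 change of each of the 37 genes (rows) in the 3 comparisons (panels), with bars for the standard error from limma; red points passed an adjusted p under 0.05 in the default fit. Red points fill the left of the outer panels, with Xaf1 to the right in the first, and the middle panel (genotypes on day 4) has none.

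Heterozygous epithelium on day 4 was also set against WT on day 1, which joins the changes of day and genotype. Of the 37 members, 19 fell and 0 rose, against 4.48% and 5.07% of all genes, and the median change was -1.95, beside 0.013 over all genes. The mean was lower in heterozygotes for 34 members and higher for 3, against 49.3% and 50.7% of all genes, and at least 2-fold lower for 31 and higher for 0, against 16.9% and 14.6%. The trend fit called 32 lower and 0 higher, against 9.65% and 11.7%. Every member but Ifitm3, Isg20 and Xaf1 lay lower on both heterozygous arrays than on both day 1 arrays, 34 of 37 against 30.1% of all genes. In the default fit, 0 members passed without array 302, 303, 253 or 281, each of which belongs to this comparison, and 21 passed without 277 or 284. Centring called 15: it ended the calls of Oasl2, Ifih1, Irf1, Stat2, Trim25, Dtx3l, Irgm1 and Rtp4 and added Zbp1, Mx2, Rsad2 and Gbp2. The shares of all genes called without an array or after centring are not given here. This comparison and the WT comparison share the day 1 arrays, so their counts are not independent.

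The order of the group means sorted the members further. The order WT day 1, WT day 4, heterozygous day 4, from high to low, held for 23 of 37 members, among them the IFIT proteins, the sensors, both Mx genes, Stat2 and 4 of the 5 oligoadenylate synthetases, against 15.0% of all genes. The heterozygotes lay between the WT groups for 10 members that were highest on day 1, among them Gbp2, Gbp3, Irgm1, Irf1, Dtx3l, Parp9 and Parp14, against 14.9% of all genes. For many of these neighbours in the order the day 4 arrays overlapped, as given above, so that the place of the heterozygotes is not resolved for them. After centring, the first order held for 17 members, 16 of them from the 23, against 9.93% of all genes, and the heterozygotes lay between for another 17, against 21.3%. Before centring, the remaining 4 were Ifitm3 and Isg20 (highest in heterozygotes), Xaf1 and Irf9 (highest in WT on day 4).

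The members also differed together between arrays of the same group. Array 302 read higher than array 303 for 33 of the 37 members, with a median log2 difference of 0.33, against 46.6% of all genes and a median of -0.034. Oas2, Irf7, Irf9 and Bst2 were the exceptions. In WT on day 4, array 277 read higher than array 284 for 33 of 37, by a median of 0.53, against 65.6% of all genes and 0.31. The heterozygous pair had no such side, with 17 of 37 higher on array 253 and a median of -0.028. The median signal of the members was 3841 and 2687 on the day 1 arrays, 1049 and 709 in WT on day 4, and 741 and 838 in heterozygotes.

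Several genes were read by more than 1 probe set. Among 15 such members, 25 further probe sets had the sign of the chosen one in 23 cases between days in WT and in 16 cases between genotypes. A fit over every probe set called 18 of the 62 member probe sets lower and 2 higher between days, against 4.15% and 5.04% of all probe sets, and 0 between genotypes. The Oas, Ifit, Gbp and Irg families hold near-identical copies in the mouse, and how far a probe set also reads a copy was not tested.

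Genes of the interferon pathway outside the list, 93 measured of 112 listed, were read in the same fit. Between days in WT, 3 rose and 23 fell, against 7.58% and 5.73% of all genes, and after centring 1 rose and 15 fell. Among the genes described below, centring ended the calls of Ifnar2, Ifngr2, Jak2, Ddx58, Ikbke and Psmb8. The interferons themselves were dim: of 10 measured ligands none passed, and Ifnb1 ran from 9.93 to 78.5 and Ifng from 1.52 to 59.1. For Ifna1, both heterozygous arrays (9.98 and 12.0) lay below all WT arrays (39.0 to 172). These heterozygous signals are low, and the difference from WT on day 4 depended on the pseudocount, at -3.18 ± 0.57 with 1 (adjusted p = 0.198) and -1.72 with 32.

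Of 10 measured receptor and kinase genes, Ifnar2, Ifngr2 and Il10rb fell and Jak2 rose. Ifnar2, a chain of the type I interferon receptor, read 1663 and 2143 on day 1, 381 and 511 in WT on day 4, and 666 and 648 in heterozygotes. It fell 4.27-fold in WT (-2.09 ± 0.26, adjusted p = 0.0169), with both heterozygous arrays above WT on day 4. Il10rb, a chain shared by the receptors of interferon lambda and interleukin 10, read 3329 and 2814, then 492 and 379, then 871 and 705. It fell 7.07-fold in WT (-2.82 ± 0.26, adjusted p = 0.00966). The heterozygous arrays lay above WT on day 4 by 0.86 ± 0.26 (adjusted p = 0.309), but the mean of its probe sets differed by -0.035. Ifngr2, of the interferon gamma receptor, fell by less (-1.10 ± 0.21, adjusted p = 0.0404). Jak2, the kinase that serves this receptor, read 3903 and 4777 on day 1 against 11668 and 13965 in WT on day 4, and it rose 2.96-fold (1.56 ± 0.22, adjusted p = 0.0224; 1.26 and adjusted p = 0.284 after centring).

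Among 15 measured genes upstream of interferon production, Ddx58 and Myd88 rose and Sting1 and Ikbke fell in WT. Sting1, the adaptor of DNA sensing, read 5267 and 4131 on day 1, 344 and 187 in WT on day 4, and 357 and 471 in heterozygotes. Day 1 stood alone, and Sting1 fell 18.3-fold in WT (-4.20 ± 0.39, adjusted p = 0.0103). Myd88, the adaptor of Toll-like and interleukin 1 receptors, went the other way, from 1787 and 2101 on day 1 to 24960 and 19830 in WT on day 4 and 15930 and 17241 in heterozygotes. It rose 11.5-fold in WT (3.52 ± 0.23, adjusted p = 0.00717).

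Ddx58 encodes RIG-I, the sensor of short viral RNA, and had the order of Xaf1. It read 2072 and 2168 on day 1, 5610 and 5720 in WT on day 4, and 1918 and 2590 in heterozygotes. The heterozygous arrays spanned the day 1 arrays and lay far below WT on day 4. Ddx58 rose in WT (1.42 ± 0.23, adjusted p = 0.0300), a call that ended after centring (1.12, adjusted p = 0.333), and the genotypes differed on day 4 by -1.35 ± 0.23 (adjusted p = 0.193, and 0.00242 in the trend fit). The trend call between genotypes also ended after centring. Between heterozygous day 4 and WT day 1 the difference was 0.07 ± 0.23 (adjusted p = 0.897).

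None of the 9 measured brakes on the pathway, such as the Socs and Ptpn genes, passed in WT. Of 6 chemokines only Cxcl10 fell. It read 343 and 195 on day 1, 4.06 and 4.45 in WT on day 4, and 25.5 and 31.1 in heterozygotes, so that all day 4 values were low. Its log2 change in WT was -5.63 ± 0.34 (adjusted p = 0.00669) with a pseudocount of 1 and -3.01 with a pseudocount of 32. In antigen processing, Psmb8 and Psmb10 of the immunoproteasome and Nlrc5, the activator of class I genes, fell among 10 measured genes, while B2m ran from 23008 to 43225 and did not pass.

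Of 33 further interferon-induced genes, 14 fell and none rose between days in WT. Gbp6 (-2.77 ± 0.21), Ddx60 (-2.93 ± 0.28), Lgals9 (-2.49 ± 0.42) and Sp100 (-2.19 ± 0.32) were among them. Ly6e, a membrane protein that limits virus entry, read 23364 and 23438 on day 1, 4342 and 3294 in WT on day 4, and 8805 and 6519 in heterozygotes. The heterozygous arrays lay between the WT groups without overlap. Ly6e fell 6.19-fold in WT (-2.63 ± 0.27, adjusted p = 0.0118), and the heterozygotes were above WT on day 4 by 1.00 ± 0.27 (adjusted p = 0.279, and 0.0182 in the trend fit). This trend call ended after centring.

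Between genotypes, none of the 93 pathway genes passed in the default fit. In the trend fit 2 of the 93, Il10rb and Ly6e, were higher in heterozygotes and 1, Ddx58, was lower. Of all genes, 1.93% were higher and 1.59% lower by the same rule. After centring, none of the 93 passed between genotypes in the trend fit. From WT day 1 to heterozygous day 4, 2 of the 93 rose and 21 fell, against 5.07% and 4.48% of all genes, and after centring 1 rose and 8 fell.

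**Figure D4:**
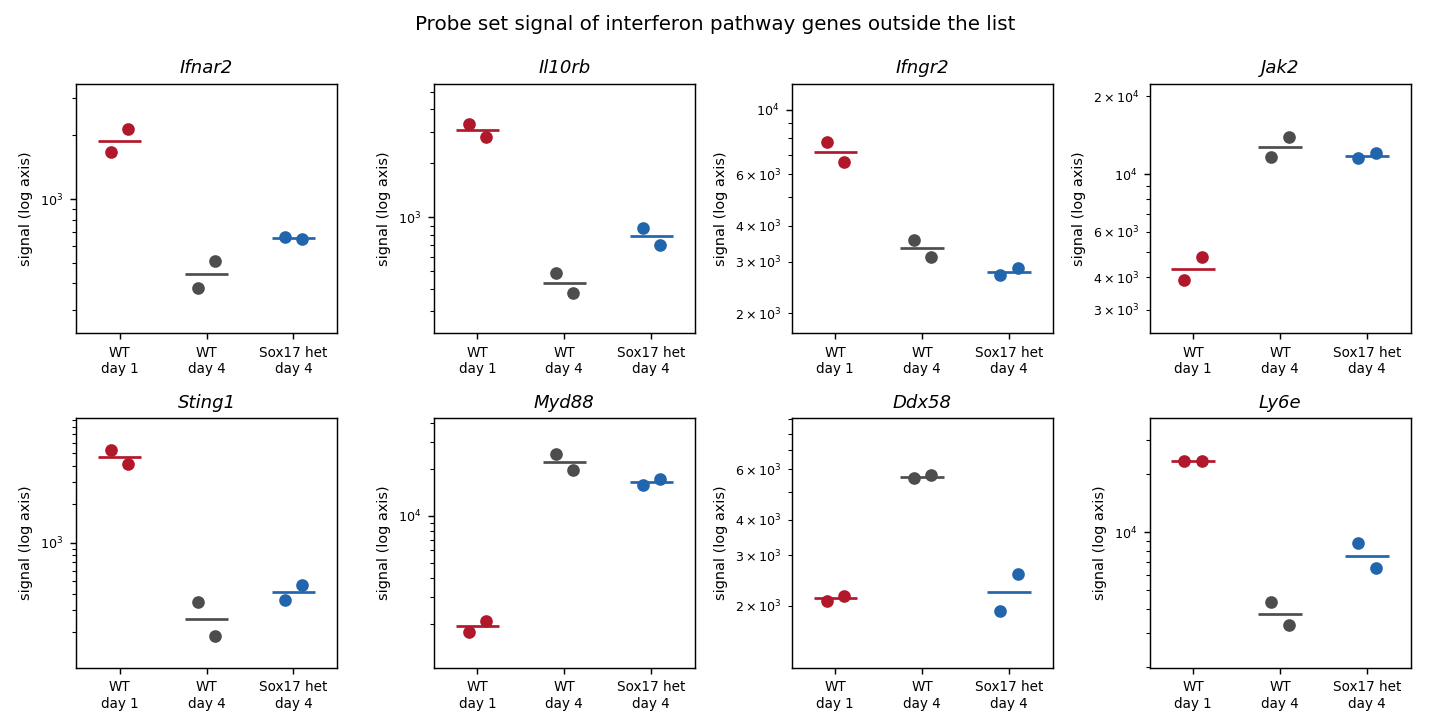
Signal (log axis) of 8 interferon pathway genes outside the list in the 3 groups; points are single arrays and lines the mean on the log2 scale. Ifnar2, Il10rb, Ifngr2, Sting1 and Ly6e are highest on day 1, Jak2 and Myd88 are lowest on day 1, and Ddx58 is highest in WT on day 4 alone.

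Markers of other cells also differed between the groups, in more than 1 direction. In bulk RNA, fewer cells of a type and less RNA per cell cannot be told apart. The 9 macrophage markers summed to 6993 and 6459 on day 1, 3211 and 1780 in WT on day 4, and 1687 and 1506 in heterozygotes. Most of the day 1 sum was Cd68 (6401 and 5746), which fell in WT (-5.01, adjusted p = 0.00822). The list as a whole ran the other way between days: 7 of the 9 had a higher mean in WT on day 4 (median log2 change 1.32). Of all genes, 62.9% had a higher mean (median 0.30). Lyz2 rose (2.42, adjusted p = 0.0123), and so did C1qa (3.18, adjusted p = 0.0396), from low day 1 signals of 8.91 and 17.0. Between genotypes 8 of the 9 had a lower mean in heterozygotes (median -0.75), against 62.7% of all genes (median -0.20). All 6 measured dendritic cell markers had a higher mean in WT on day 4 than on day 1, and Zbtb46 rose (4.15, adjusted p = 0.00947). In heterozygotes 5 of the 6 were lower than in WT on day 4, beside the same shares of all genes. Many of these markers were dim. On array 277, 0 of the macrophage and 2 of the dendritic cell markers read below 50, against 3 to 4 and 3 to 6 on the other arrays. The part of array 277 in these differences was not tested. The 7 stromal markers summed to 3463 and 8869, then 1508 and 2748, then 445 and 828, lowest in heterozygotes. All 7 had a lower mean in heterozygotes than in WT on day 4, against 62.7% of all genes. Between days in WT, 5 of the 7 had a lower mean (median -1.25), against 37.1% of all genes (median 0.30). Within day 1, array 303 had the higher stromal sum and the lower signal for 33 of 37 members. Of 4 general leukocyte markers, Ptprc and Coro1a were lower and Cd52 and Laptm5 higher in heterozygotes than in WT on day 4 (log2 differences of -2.08, -3.27, 0.93 and 1.49). Coro1a was under 50 on every array, and Ptprc read 30.3 and 18.9 in heterozygotes, so the differences of both rest on low signals. Further lists had mostly lower means in heterozygotes than in WT on day 4. These were 5 of 6 neutrophil, 7 of 8 lymphocyte and natural killer cell, and 5 of 5 endothelial markers, against 62.7% of all genes. Between days in WT, 4, 6 and 5 of them had higher means, against 62.9%. Except on array 277, most markers of each of these lists read below 50. The part of these cells in the members' differences was not tested.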

How the data were processed

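Per the labels' protocols, RNA of separated uterine epithelium was extracted with Trizol, and 100 ng was amplified, biotin-labelled and put on Affymetrix arrays of 1 colour, 1 per sample. The deposited values give each probe set's intensity on a linear scale. The submitters' processing notes list RMA, Transcriptome Analysis Console and Affymetrix Expression Console, and give no version or role for any of them. RMA output would be log2 and quantile-normalised, whereas these values are linear, and each array has a mean of 500 after trimming 2% at each end. The sources used here do not give how probes were summarised.

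Of 45101 probe sets, 34945 with a single platform symbol were used, 932 with several and 9160 with none were not, and the rest were controls. Gene IDs of 34741 were matched to RefSeq (GRCm38.p6), which changed 0 symbols. Values were taken as log2(signal + 1), without further normalization or filter. Fold changes of dim genes therefore depend on the pseudocount, as given above for Ifna1 and Cxcl10. The fit of all 6 arrays used limma 3.58.1 under R 4.3.3 with 3 residual degrees of freedom, default eBayes and Benjamini-Hochberg adjustment over 18193 genes. Adjusted p-values are from this fit, or from eBayes with an intensity trend where that is said. Errors after ± are its standard errors (n = 2 arrays per group). No exact permutation test was run, since 2 arrays against 2 allow no p smaller than 0.333.

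The members, the pathway and marker lists and the promoter motifs were chosen with earlier results of these data known, so no list is independent evidence. Full values are given for members that passed in any comparison, for the 2 of smallest p per class between days and for the 1 of smallest p between genotypes. Pathway genes were named by smallest p in each list, and others after their values were seen. Samples were grouped by their titles. The labels name no batch. The alternatives were other scalings, pseudocounts, filters, spread models, probe sets and sets of arrays, and an adjusted p of 0.10. The trend fits without 1 array or with centring were chosen after seeing the data.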

Additional observations from a re-analysis of the deposited data

How the results depend on the processing

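No paired analysis was possible because the groups share no replicate numbers. Against 15 members called between days in WT, a pseudocount of 32 gave 27, leaving out the dimmest genes 28, the intensity trend 32, the 4 arrays of the comparison 1, an adjusted p under 0.10 26, and centring with the trend 26. From WT day 1 to heterozygous day 4, against 19, these were 30 (pseudocount), 32 (dimmest genes left out), 32 (trend) and 30 (adjusted p under 0.10), with 31 under array weights. Between genotypes, against 0, the trend called 4. Leaving out 1 array gave 0 to 11, 0 and 0 to 21 in the default fit, and with the trend 25 to 32 (29 without array 303), 1 to 7 and 31 to 33. Quantile normalization, centring alone, a robust prior and the mean of probe sets kept the 3 counts within 1.5 times of the main ones. Over every probe set, the trend called 49, 3 and 48 of 62. Shares of all genes called are given above only for the default and trend fits on all arrays.

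For the other pathway genes between days (26 called), centring gave 16, the trend 41, the 4 arrays 6, array weights 16, and leaving out 1 array 0 to 18 (trend 28 to 41, with 40 without array 284). Between genotypes the trend gave 3, 1 to 11 with an array left out, and none after centring. From WT day 1 to heterozygous day 4 (23 called), centring gave 9, the mean of probe sets 15, leaving out dim genes, array weights and an adjusted p under 0.10 each 37, the trend 48, and leaving out 1 array 0 to 26 (trend 33 to 52, with 40 without array 303).

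The members' median between days lay from -1.90 to -1.29 with an array left out. Between genotypes it lay from -0.70 to -0.034, and turned to 0.0054 after centring, which also turned Oas1a (0.45), Oasl1 (0.0054), Zbp1 (0.088), Eif2ak2 (0.44), Trim25 (0.39), Ifi35 (0.35) and Rtp4 (0.046). Between days it turned Irf9 (-0.26), Ifitm3 (-0.075) and Isg20 (-0.21). The mean of probe sets turned Eif2ak2 (0.27), Trim25 (0.10), Parp14 (-0.10), Samhd1 (-0.21) and Il10rb (-0.035) between genotypes, and quantile normalization Irf1 (-0.016) there and Socs1 (-0.14) between days. Centring moved the median of all genes from 0.30 to 0.0005 between days and from -0.20 to 0.25 between genotypes.
With 1 array left out, the sign between genotypes also turned for 15 members: Oas1a (-0.12 to 0.12), Oas2 (-0.54 to 0.65), Zbp1 (-1.33 to 0.61), Eif2ak2 (-0.22 to 0.20), Irf1 (-0.17 to 0.24), Irf7 (-1.29 to 0.00021), Trim25 (-0.17 to 0.049), Parp9 (-0.10 to 0.45), Parp14 (-0.26 to 0.47), Bst2 (-0.14 to 0.30), Ifitm3 (-0.015 to 0.21), Samhd1 (-0.048 to 0.20), Gbp2 (-0.28 to 1.40), Gbp3 (-0.17 to 1.35) and Ifi35 (-0.25 to 0.041). It turned between days for Isg20 (-0.14 to 0.32) and Igtp (-0.44 to 0.086), and from WT day 1 to heterozygous day 4 for Ccl2 (-0.18 to 2.02). The causes were not tested. With 2 arrays a group, precision is low, and array 277, bright in its dim range, bears on all WT day 4 values.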
